A study of Mus musculus with 12 samples.

Results

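The unfolded protein response (UPR) and the protein folding machinery of the endoplasmic reticulum (ER) were examined in pancreatic islets of 4 mouse genotypes. The 37 genes were taken from a list of UPR sensors, ER chaperones, disulfide isomerases, degradation factors and stress targets, and the rule that found their probes used no expression value other than brightness. The members of the list were, however, chosen with earlier results of these data known. A probe was assigned to a gene through its RefSeq accession, and a gene with several probes was represented by the probe with the highest mean signal. In this way 35 of the 37 genes had a probe, out of 17305 named genes on the array, and Dnajb11 and Pdia3 were not analysed here. All 35 probes were well above background on all 12 arrays and 0 were saturated, so the levels of these probes were measured on both sides of each comparison. There were 21 genes with 1 probe and 14 with more.

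The islets came from WT mice, PPARγ2KO mice that lack the γ2 isoform of PPARγ, ob/ob mice that lack leptin, and POKO mice, the double knockout (DKO in the labels) that lacks both. All 4 groups shared a mixed C57BL/6 x Sv129 background, a chow diet and an age of 4 weeks in the labels, while the text of the study gives a different age. The mice were female per the same text. Each genotype had 3 arrays, one on each of 3 slides. Each array held the RNA of hand-picked islets pooled from several mice and cultured overnight, so a mutation acts in the whole animal and the arrays measure what the islets kept after a night in culture medium. P-values measure the spread between these pools. In whole islets, a change in the share of a cell type and a change in RNA per cell cannot be told apart.

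Proteins that enter the secretory pathway fold in the ER lumen, where chaperones such as BiP (Hspa5) and GRP94 (Hsp90b1) hold unfolded chains, protein disulfide isomerases form and exchange disulfide bonds, and calreticulin and calnexin retain glycoproteins until they are folded. When unfolded chains accumulate, the membrane sensors IRE1 (Ern1), PERK (Eif2ak3) and ATF6 are activated. IRE1 splices the mRNA of the transcription factor XBP1, ATF6 is cut to release a transcription factor, and PERK slows translation while it favours ATF4, which acts on amino acid and stress genes such as Ddit3 (CHOP). Chains that do not fold are sent back to the cytosol by ER-associated degradation. Beta cells make insulin in very large amounts and are known for a high load on this system, and mutations in PERK or WFS1 cause diabetes. The arrays measure the total level of an mRNA, so neither the splicing of Xbp1 nor the activation of any sensor was measured.

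The promoters of these genes are known for the ER stress response element (ERSE), searched here as CCAAT and CCACG with 9 bases of any kind between them, and for ERSE-II, searched as ATTGG and CCACG with 1 base between them. Windows from 250 bases before to 50 after the start of each gene were taken from RefSeq (GRCm38.p6), in which 32 of the 37 genes had a window. On either strand, ERSE was present in 10 of these 32 windows, which is 31.2%, against 0.119% of all 32851 windows. ERSE-II was present in 2 of them (Herpud1 and Dnajb11), which is 6.25% against 0.0365%. TGACGTGG, a UPR element bound by XBP1 and ATF6, was in 0 of the 32 windows and in 0.676% of all, and TGATGCAAT, an amino acid response element, was in 0 of the 32 and in 0.192% of all. No match overlapped a match of another motif in the 32 windows. The sequences below are those of the 4 genes that passed the test in any comparison (Hsp90b1, Creld2, Dnajc3 and Syvn1), of Hspa5, the chaperone by which ER stress is usually read, and of Herpud1, the measured gene with ERSE-II. They run 5′ to 3′ on the strand of the gene and end at the last base before its start, and the capitals mark the fixed letters of the element.
Hspa5 (chr2:34771940-34772089, plus strand): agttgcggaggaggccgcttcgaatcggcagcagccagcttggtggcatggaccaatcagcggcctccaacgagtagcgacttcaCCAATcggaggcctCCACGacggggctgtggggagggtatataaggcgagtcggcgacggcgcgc
Hsp90b1 (chr10:86705445-86705666, minus strand): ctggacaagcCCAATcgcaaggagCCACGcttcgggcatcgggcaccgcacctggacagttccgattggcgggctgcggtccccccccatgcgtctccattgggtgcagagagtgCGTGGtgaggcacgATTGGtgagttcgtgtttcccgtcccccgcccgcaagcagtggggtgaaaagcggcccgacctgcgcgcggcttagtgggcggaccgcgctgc
Creld2 (chr15:88819496-88819645, plus strand): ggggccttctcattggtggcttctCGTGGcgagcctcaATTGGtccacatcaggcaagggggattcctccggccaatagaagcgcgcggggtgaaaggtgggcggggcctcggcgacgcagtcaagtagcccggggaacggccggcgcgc
Dnajc3 (chr14:118937782-118937931, plus strand): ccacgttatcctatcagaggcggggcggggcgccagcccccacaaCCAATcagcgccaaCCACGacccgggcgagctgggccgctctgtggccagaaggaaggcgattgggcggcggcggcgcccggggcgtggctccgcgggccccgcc
Syvn1 (chr19:6046426-6046575, plus strand): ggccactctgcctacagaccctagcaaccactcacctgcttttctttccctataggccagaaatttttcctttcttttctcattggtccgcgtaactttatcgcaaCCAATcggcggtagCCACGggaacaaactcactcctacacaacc
Herpud1 (chr8:94386279-94386428, plus strand): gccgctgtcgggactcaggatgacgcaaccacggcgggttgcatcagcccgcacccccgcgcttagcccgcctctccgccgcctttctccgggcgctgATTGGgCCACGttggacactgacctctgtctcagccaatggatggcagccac

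In Hspa5 the ERSE lay at -65 to -47 from the start, in Dnajc3 at -105 to -87 and in Syvn1 at -44 to -26. In Creld2 it lay on the opposite strand at -126 to -108. Hsp90b1 held a match on each strand, at -212 to -194 and at -107 to -89. The ERSE-II of Herpud1 lay at -52 to -42. The remaining ERSE matches were in Calr, Canx, Pdia6, Ero1b and Derl3. A match is a run of letters and was not tested for binding.

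On the arrays, the median processed signal was 20.9 to 27.0 in WT, 23.0 to 30.4 in PPARγ2KO, 30.7 to 40.6 in ob/ob and 31.6 to 33.6 in POKO, before normalization. Between 54.3% and 64.9% of the spots of an array were well above background. The position on the slide was the same for all arrays of a genotype, so position and genotype cannot be told apart. As a check of the labels, the probe of Pparg gave a log2 signal of 8.85 to 8.98 in WT and 8.54 to 9.77 in ob/ob, against 6.60 to 7.44 in PPARγ2KO and 6.41 to 7.14 in POKO, without overlap. Values below are log2 signals after quantile normalization, tests are limma with Benjamini-Hochberg adjustment over the 41174 probes of the array, and a gene was called at an adjusted p of at most 0.05.

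In ob/ob vs. WT, which compares mice without and with leptin in the presence of PPARγ2, 3 genes of the lumenal chaperone group rose. Most folding and degradation genes had higher means, and 4 of the 5 sensors and their factors had lower means. The chaperone Hsp90b1 (log2 fold change 0.96 ± 0.19, SE, adjusted p = 0.0246) and Creld2 (1.14 ± 0.27, adjusted p = 0.0342) rose, as did the co-chaperone Dnajc3 (0.61 ± 0.17, adjusted p = 0.0484), with n = 3 arrays per genotype in limma. These 3 of 35 genes (8.57%) were called, all higher, where 11.1% of all probes were called and 4.92% were called higher. Without regard to the test, 28 of the 35 genes had a higher mean in ob/ob (80.0%, against 39.7% of all probes), and the median log2 fold change of the 35 was 0.46 against -0.08 for all probes. An unadjusted p under 0.05 in limma was found for 12 genes with a higher mean (34.3%, against 12.3% of all probes) and for 2 with a lower mean (5.71%, against 18.8%). The ob/ob arrays lay above all WT arrays in 9 genes (25.7%, against 11.3% of all probes) and below all of them in 2 genes, Xbp1 and Eif2ak3 (29.8% of all probes).

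**Figure D1:**
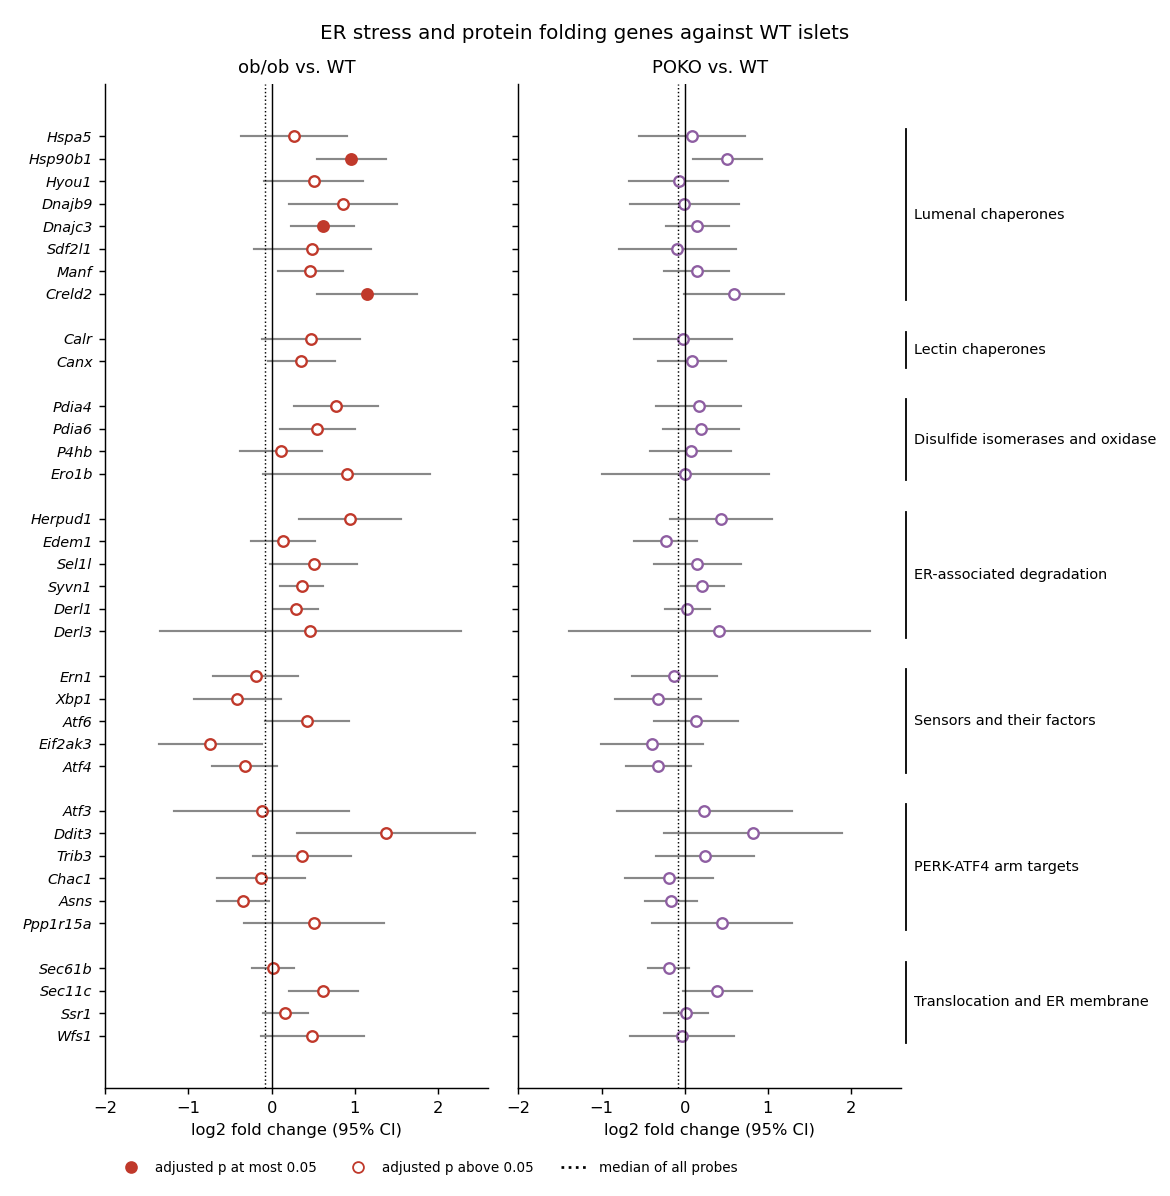
Log2 fold change of each of the 35 genes in ob/ob vs. WT (left) and POKO vs. WT (right), in limma with n = 3 arrays per genotype, with lines for the 95% confidence interval and genes grouped by role. Filled points have an adjusted p of at most 0.05 (Hsp90b1, Dnajc3 and Creld2 in ob/ob), and the dotted line is the median of all 41174 probes.

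The plot of fold changes by role shows the ob/ob points of the 4 folding and degradation groups to the right of 0 throughout, and most of their POKO points closer to 0. The count of 3 moved with single arrays, as did the calls over all probes. It was 0 without WT replicate 1 or 2 or without ob/ob replicate 2 or 3, where 0.42% to 1.24% of all probes were called, and 1 without any of the 3 POKO arrays (4.71% to 5.32%). It was 8 without WT replicate 3 (20.5% of all probes), of which 6 were higher and 2, Asns and Eif2ak3, lower, and 10 without ob/ob replicate 1, all higher (12.5% of all probes). The median of the 35 genes stayed between 0.21 (without ob/ob replicate 3) and 0.66 (without ob/ob replicate 1). The 12 genes higher at an unadjusted p under 0.05 became 8 and 21 without these arrays and 7 with 75th percentile scaling. The 2 genes lower became 0 without WT replicate 1 or 2 or ob/ob replicate 1, and 4 with 75th percentile scaling. When arrays were scaled to their 75th percentile in place of quantiles, the median of all probes was -0.19 and that of the 35 genes 0.24.

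The lumenal chaperones were the group with the called genes, 3 of 8 (37.5%, against 4.92% of all probes called higher). Creld2 was placed in this group although it has disulfide isomerase activity, so this share depends on its placement. The means of all 8 were higher in ob/ob (median log2 fold change 0.56, and 0.33 with 75th percentile scaling). Hsp90b1, which encodes the HSP90 of the ER, gave 13.76, 13.84 and 14.28 on the WT arrays and 14.62, 14.91 and 15.22 on the ob/ob arrays. All 3 ob/ob arrays lay above all 3 WT arrays, and the ob/ob mean was 1.94-fold that of WT. The PPARγ2KO arrays gave 13.89, 14.09 and 14.26, and the POKO arrays gave 14.61, 14.38 and 14.43. Thus every POKO array also lay above every WT array, and below every ob/ob array, though on slide 1 the difference of POKO from ob/ob was only -0.0086. A second probe of Hsp90b1 gave 0.95 in ob/ob vs. WT (adjusted p = 0.0311).

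Creld2, a secreted ER stress-inducible protein with disulfide isomerase activity, gave 12.52, 12.65 and 13.06 in WT and 13.26, 13.97 and 14.43 in ob/ob. The groups did not overlap, and the mean was 2.21-fold higher in ob/ob. It gave 12.96, 12.99 and 13.27 in PPARγ2KO and 13.52, 13.26 and 13.23 in POKO, so the POKO arrays sat between WT and the 2 higher ob/ob arrays. Dnajc3 (p58IPK), a co-chaperone of BiP that also restrains PERK, gave 11.33, 11.42 and 11.67 in WT and 11.86, 12.11 and 12.29 in ob/ob, again without overlap. In PPARγ2KO it gave 11.72, 11.18 and 11.65 and in POKO 11.76, 11.54 and 11.56, both overlapping the WT arrays. The 3 other probes of Dnajc3 gave log2 fold changes of 0.33, 0.36 and 0.53 in ob/ob vs. WT, with adjusted p of 0.0458, 0.347 and 0.0451.

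Compared within each slide, Hsp90b1 was higher in ob/ob than in WT by 0.87, 1.07 and 0.94, Creld2 by 0.74, 1.31 and 1.38, and Dnajc3 by 0.53, 0.69 and 0.62. All 3 genes were therefore higher in ob/ob on every slide. With the slide as a block, the adjusted p was 0.025 for Hsp90b1, 0.0328 for Creld2 and 0.0517 for Dnajc3, so that 2 genes were called.

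Hspa5 (BiP), the central chaperone of the lumen, gave 15.32, 14.91 and 14.80 in WT and 14.70, 15.21 and 15.93 in ob/ob. One ob/ob array was the lowest of the 6 and another the highest, and the log2 fold change of 0.27 ± 0.28 (SE) was within the spread (adjusted p = 0.539, 95% CI -0.37 to 0.91). The PPARγ2KO arrays gave 14.98, 15.30 and 14.92 and the POKO arrays 15.21, 14.88 and 15.20. Dnajb9 (ERdj4), a co-chaperone of BiP, gave 9.84, 9.89 and 10.33 in WT and 10.28, 10.81 and 11.55 in ob/ob, with 2 of 3 ob/ob arrays above WT (0.86 ± 0.29, adjusted p = 0.0809). Its other 2 probes gave 0.78 and 0.07. It gave 10.35, 10.01 and 9.85 in PPARγ2KO and 10.18, 9.94 and 9.92 in POKO. The other chaperones, Hyou1, Sdf2l1 and the secreted factor Manf, had log2 fold changes of 0.47 to 0.51 and were not called.

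**Figure D2:**
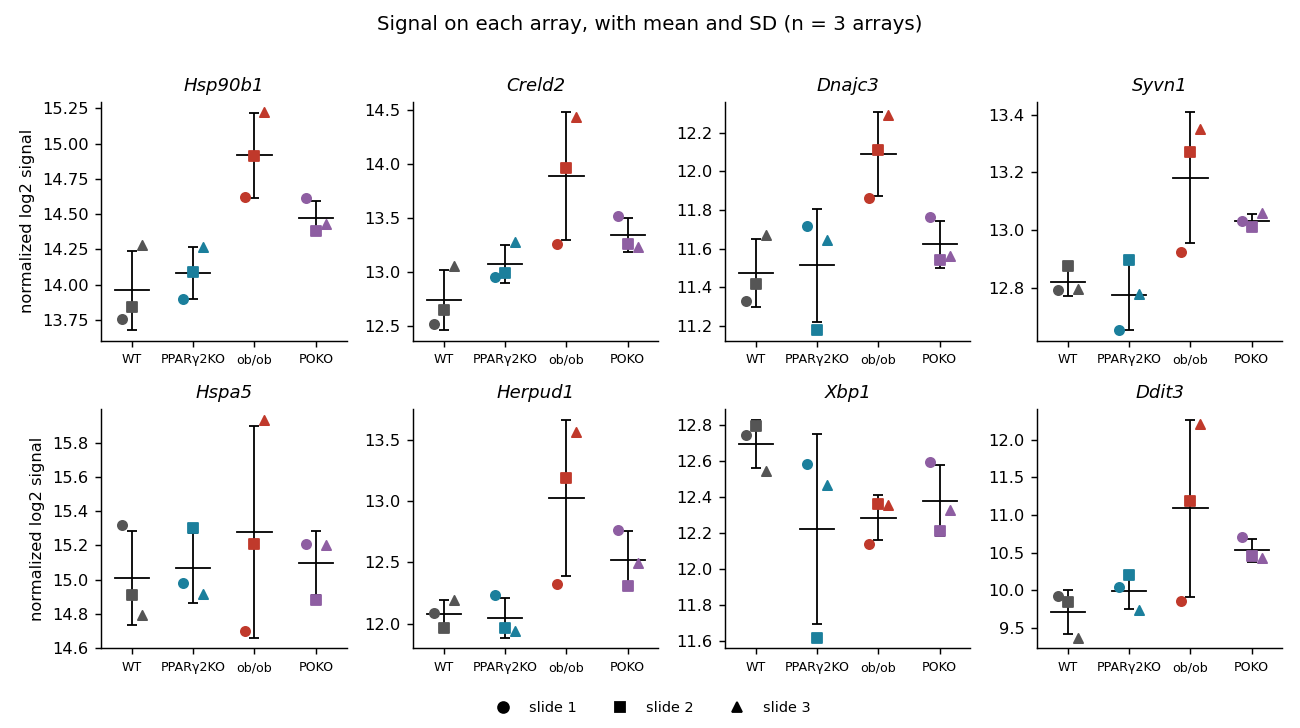
Normalized log2 signal of 8 genes on each of the 12 arrays, by genotype, with symbols for the slide, and with the mean and SD of 3 arrays as bars. Vertical axes differ between panels and do not start at 0. The 3 ob/ob arrays of Hsp90b1 (14.62 to 15.22) and Dnajc3 (11.86 to 12.29) lie above all WT arrays, those of Hspa5 spread below and above the WT range, and those of Ddit3 run from within it (9.86) to far above it (12.21).

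Both lectin chaperones had higher means in ob/ob, with log2 fold changes of 0.48 for calreticulin (Calr, adjusted p = 0.248) and 0.36 for calnexin (Canx, adjusted p = 0.209), and neither was called. Of the disulfide isomerases and oxidases, all 4 measured had higher means (median 0.66) and 0 were called, with 2 at an unadjusted limma p under 0.05. Pdia4 (ERp72), a protein disulfide isomerase, came closest: 9.08, 9.41 and 10.08 in WT against 10.09, 10.41 and 10.39 in ob/ob. The lowest ob/ob array stood just above the highest WT array, and the log2 fold change was 0.78 ± 0.23 (SE, adjusted p = 0.0557). Pdia4 gave 10.09, 9.89 and 9.71 in PPARγ2KO and 9.73, 9.73 and 9.61 in POKO. Ero1b, the oxidase that recharges the isomerases and is abundant in beta cells, had a large difference with a large spread (0.90 ± 0.45, SE, adjusted p = 0.204), as its WT arrays ran from 10.37 to 11.99 and its ob/ob arrays from 11.33 to 12.64. Its 2 probes, of similar brightness, disagreed on POKO: the second gave 1.31 in ob/ob vs. WT (adjusted p = 0.0978), 1.06 in POKO vs. WT and -0.24 in POKO vs. ob/ob, where the first gave 0.0057 and -0.90 in the last 2. The classic isomerase P4hb was near 0 (0.11 ± 0.22), and its sign turned with 75th percentile scaling (-0.15).

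In ER-associated degradation, all 6 genes had higher means in ob/ob (median 0.41, and 0.19 with 75th percentile scaling, where Edem1 turned to -0.07), and 0 passed at an adjusted p of 0.05. Herpud1, a membrane protein of the degradation complex, gave 12.09, 11.97 and 12.19 in WT and 12.33, 13.19 and 13.57 in ob/ob (0.94 ± 0.27, SE, adjusted p = 0.0547). The groups did not overlap, but the lowest ob/ob array stood close to WT and the other 2 far above. Herpud1 gave 12.23, 11.97 and 11.94 in PPARγ2KO and 12.77, 12.31 and 12.49 in POKO, so all POKO arrays were above all WT arrays. Syvn1 (HRD1), the ubiquitin ligase of the complex, gave 12.79, 12.88 and 12.80 in WT, 12.65, 12.90 and 12.78 in PPARγ2KO, 12.92, 13.27 and 13.35 in ob/ob and 13.03, 13.01 and 13.06 in POKO. The 6 arrays without leptin were all above the 6 arrays with leptin. In ob/ob vs. WT the difference of Syvn1 was 0.36 ± 0.11 (SE, adjusted p = 0.0681), and its second, dimmer probe, well above background on 11 arrays, gave 1.57 (adjusted p = 0.195). Derl1, a channel component, gave 11.18, 11.18 and 11.05 in WT, 10.97, 10.91 and 11.27 in PPARγ2KO, 11.24, 11.45 and 11.59 in ob/ob and 11.22, 11.13 and 11.15 in POKO. Its brightest probe was not called in ob/ob vs. WT (0.29, adjusted p = 0.131), while 1 of its 3 other probes was past the threshold (0.48, adjusted p = 0.0442).

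Derl3 was the least reproducible of the genes, with 9.53 to 10.95 on the WT arrays and 9.09 to 12.37 on the ob/ob arrays and an SD within genotypes of 1.06, against a median of 0.30 over the genes. Sel1l, the adaptor of Syvn1, had ob/ob arrays of 8.10 to 8.89 above WT arrays of 7.92 to 8.01 (0.51 ± 0.23, SE, adjusted p = 0.175). Edem1, a lectin that hands glycoproteins to degradation, gave 10.95, 11.08 and 10.93 in WT and 10.97, 11.18 and 11.21 in ob/ob, a difference within the spread (0.14 ± 0.17). It gave 10.87, 10.23 and 10.65 in PPARγ2KO and 10.91, 10.86 and 10.49 in POKO, so on this probe all 6 arrays without PPARγ2 lay below all 6 arrays with it. The 3 probes of Edem1 disagreed: the other 2 gave 0.62 (adjusted p = 0.0648) and -0.18 (adjusted p = 0.347) in ob/ob vs. WT, and 0.21 and -0.41 in POKO vs. WT, where the brightest gave -0.23.

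The sensors and their factors mostly had lower means in ob/ob. Of the 5, only Atf6 had a higher mean in ob/ob (0.43 ± 0.22, SE, adjusted p = 0.229), the median was -0.33 (-0.55 with 75th percentile scaling), and 0 were called. A second probe of Atf6 gave -0.50 (adjusted p = 0.083), so the 2 probes of this gene disagreed in sign. Eif2ak3 (PERK) had the largest difference, with 11.43, 11.47 and 10.81 in WT and 10.26, 10.52 and 10.72 in ob/ob (-0.74 ± 0.27, SE, adjusted p = 0.105). All its ob/ob arrays lay below all WT arrays, though on slide 3 the difference was only -0.08, against -1.18 and -0.95 on slides 1 and 2. Xbp1 gave 12.74, 12.79 and 12.54 in WT and 12.14, 12.36 and 12.35 in ob/ob, again without overlap (-0.41 ± 0.23, SE, adjusted p = 0.258), and 12.58, 11.62 and 12.46 in PPARγ2KO and 12.60, 12.21 and 12.33 in POKO. Atf4 gave 12.43, 11.97 and 11.74 in WT, 11.90, 11.75 and 11.67 in PPARγ2KO, 11.68, 11.53 and 11.94 in ob/ob and 11.81, 11.63 and 11.75 in POKO. Its ob/ob and WT arrays overlapped (-0.33 ± 0.17, SE, adjusted p = 0.235). Ern1 (IRE1) was at -0.19 ± 0.23 and its sign rested on WT replicate 1, without which it was 0.03.

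The targets of the PERK and ATF4 arm were split in direction. In ob/ob vs. WT 3 of the 6 had a higher mean and 3 a lower one, the median was 0.12 (-0.11 with 75th percentile scaling and -0.09 without WT replicate 3), and 0 were called, with 1 higher and 1 lower at an unadjusted limma p under 0.05. Ddit3 (CHOP), the transcription factor tied to death under lasting ER stress, gave 9.92, 9.84 and 9.37 in WT and 9.86, 11.19 and 12.21 in ob/ob. One ob/ob array lay within the WT range and the other 2 more than 1 log2 unit above the highest WT array (log2 fold change 1.38 ± 0.47, SE, adjusted p = 0.086). It gave 10.05, 10.20 and 9.73 in PPARγ2KO and 10.71, 10.45 and 10.43 in POKO. The POKO arrays of Ddit3 were all above WT and close to each other, with an SD of 0.16 against 1.17 in ob/ob. Trib3, a pseudokinase induced by CHOP, gave 13.11, 13.02 and 12.41 in WT, 12.45, 12.25 and 12.42 in PPARγ2KO, 12.62, 13.45 and 13.55 in ob/ob and 13.14, 12.89 and 13.24 in POKO.

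Ppp1r15a (GADD34), the phosphatase subunit that ends the translational block, gave 11.52, 11.06 and 10.43 in WT, 10.67, 9.98 and 10.52 in PPARγ2KO, 10.82, 11.47 and 12.25 in ob/ob and 11.56, 11.34 and 11.46 in POKO. Its WT arrays alone spanned more than 1 log2 unit, and its log2 fold change in ob/ob vs. WT was 0.51 ± 0.37 (SE). Asns, the asparagine synthetase gene of the amino acid response, gave 14.98, 14.91 and 14.57 in WT and 14.36, 14.60 and 14.46 in ob/ob (-0.34 ± 0.14, SE, adjusted p = 0.126). It gave 14.70, 14.39 and 14.40 in PPARγ2KO and 14.71, 14.50 and 14.76 in POKO. Atf3 and Chac1 differed by -0.12 and -0.13, within their SE of 0.47 and 0.23.

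Among the translocation and ER membrane genes, all 4 had higher means in ob/ob (median 0.33, and 0.11 with 75th percentile scaling, where Sec61b and Ssr1 turned to -0.18 and -0.04), and 0 were called. Sec11c, a subunit of the signal peptidase, gave 10.43, 10.50 and 10.39 in WT and 10.85, 11.03 and 11.30 in ob/ob without overlap (0.62 ± 0.18, SE, adjusted p = 0.0591). It gave 11.04, 10.89 and 10.32 in PPARγ2KO and 10.98, 10.74 and 10.77 in POKO. The translocon subunit Sec61b (0.02 ± 0.11), the translocon-associated Ssr1 (0.17 ± 0.12) and the diabetes gene Wfs1 (0.49 ± 0.28) were within or near the spread, with adjusted p of 0.938, 0.365 and 0.258.

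The 3 ob/ob pools differed among themselves in these genes. Relative to the mean of the WT arrays, the median of the 35 genes was 0.08, 0.49 and 0.82 on the ob/ob arrays of slides 1, 2 and 3, against -0.05 to 0.02 on the WT arrays, -0.11 to -0.01 on the PPARγ2KO arrays and 0.03 to 0.20 on the POKO arrays. The ob/ob array of slide 1 was the lowest of its group in 33 of the 35 genes and that of slide 3 the highest in 28. The median processed signal before normalization of the same 3 arrays was 30.7, 37.5 and 40.6, and its part in these differences was not tested. The SD between arrays was smallest in POKO for 26 of the 35 genes (median SD 0.12) and largest in ob/ob for 18 (median SD 0.30, against 0.27 in WT and 0.26 in PPARγ2KO). The same counts over all probes are not given, so whether these patterns are particular to the ER genes was not tested.

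**Figure D3:**
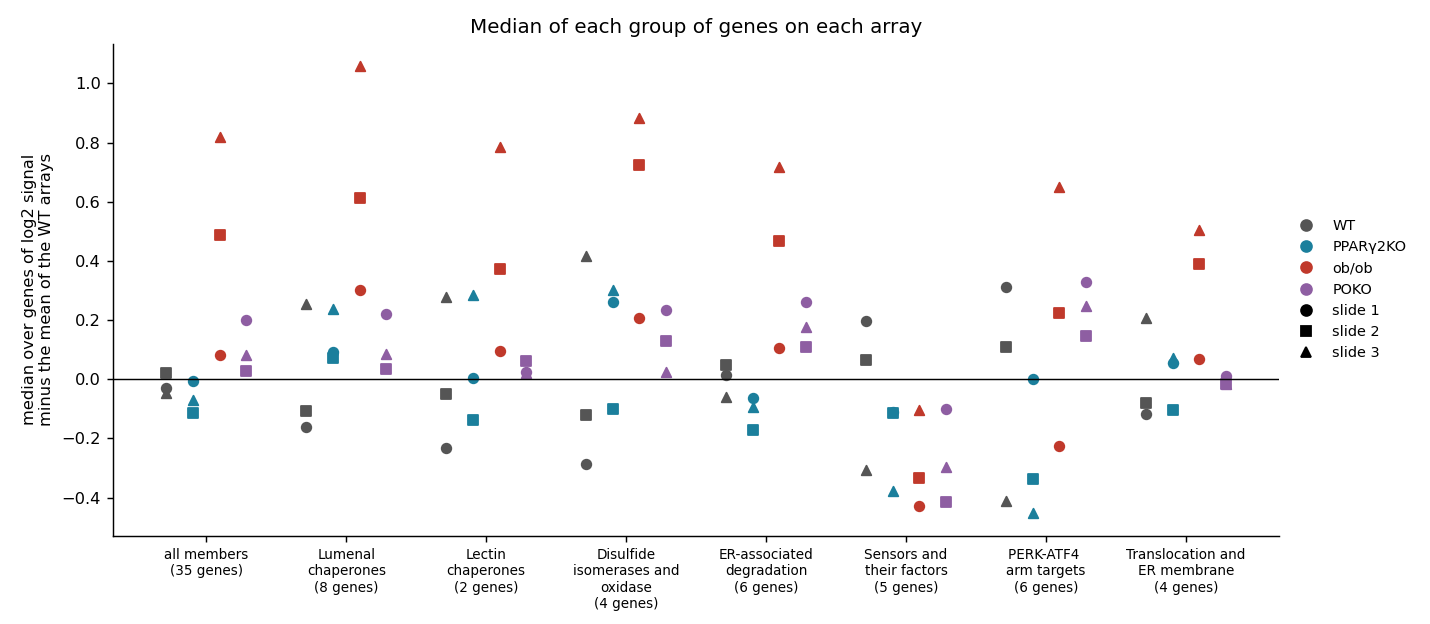
Median over the genes of a group of the log2 signal minus the mean of the WT arrays, for each of the 12 arrays, for all 35 genes and for each of the 7 roles, with symbols for the slide. The ob/ob arrays run from 0.30 to 1.06 in the lumenal chaperones and from -0.43 to -0.10 in the sensors and their factors.

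The plot of medians by array shows the ob/ob arrays above the WT arrays in the lumenal chaperones, and the POKO and PPARγ2KO arrays within the WT range there. In the lumenal chaperones, the ob/ob arrays were at 0.30, 0.61 and 1.06 and the WT arrays at -0.16, -0.11 and 0.25, with WT replicate 3 the highest of its group. In the sensors and their factors, the ob/ob arrays were at -0.43, -0.34 and -0.10, the POKO arrays at -0.10, -0.41 and -0.30, the PPARγ2KO arrays at -0.11, -0.11 and -0.38 and the WT arrays at 0.20, 0.07 and -0.31. In the sensors and their factors the WT arrays overlapped those of all 3 mutant genotypes. In the targets of the PERK and ATF4 arm the WT arrays themselves ran from -0.41 to 0.31.

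In POKO vs. WT, which compares mice lacking both leptin and PPARγ2 with WT mice, 0 of the 35 genes passed at an adjusted p of 0.05 in limma, and 0.194% of all probes did. Only Hsp90b1 had an unadjusted p under 0.05, where 6.83% of all probes had one with a higher mean (log2 fold change 0.51 ± 0.19, SE, adjusted p = 0.212), and it was called when arrays were weighted by their quality, as were 9.84% of all probes. Creld2 (0.60 ± 0.27, adjusted p = 0.311) and Sec11c (0.39 ± 0.18, adjusted p = 0.338) came next. The count of 1 gene higher at an unadjusted p under 0.05 moved with single arrays. It was 0 without WT replicate 1 or 2 or POKO replicate 1, 3 without WT replicate 3 or ob/ob replicate 3, and 5 without ob/ob replicate 1. With 75th percentile scaling 0 genes were higher and 2 lower at that p. The median of the 35 genes was 0.09, and -0.06 with 75th percentile scaling, against -0.08 and -0.15 for all probes. The median was 0.03 without POKO replicate 1. The means of 22 genes were higher (62.9%, against 35.9% of all probes), and of 16 genes with 75th percentile scaling. In 6 genes all POKO arrays lay above all WT arrays (17.1%, against 9.2%), namely Hsp90b1, Creld2, Herpud1, Syvn1, Sec11c and Ddit3. In 2 genes, Edem1 and Sec61b, all POKO arrays lay below all WT arrays (25.5% of all probes did so). The sensors and their factors had a median of -0.32, near that in ob/ob vs. WT, which uses the same WT arrays.

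In POKO vs. ob/ob, which compares leptin-deficient mice without and with PPARγ2, 0 of the 35 genes were called in limma and 0.00486% of all probes were. The means of 29 of the 35 genes were lower in POKO and 6 were higher, while 54.1% of all probes were higher, and the median was -0.27 against 0.01 for all probes (-0.19 against 0.02 with 75th percentile scaling). That median was -0.46 without ob/ob replicate 1 and -0.16 without ob/ob replicate 3. The 6 genes higher became 4 and 12 without these arrays, and 10 with 75th percentile scaling. Unadjusted p was under 0.05 for 4 genes (18 and 1 without these arrays) with a lower mean (11.4%, against 4.37% of all probes). These were Dnajb9 (-0.86 ± 0.29), Dnajc3 (-0.46 ± 0.17), Pdia4 (-0.61 ± 0.23) and Hsp90b1 (-0.45 ± 0.19), with adjusted p of 0.531 to 0.532. In 8 genes all POKO arrays lay below all ob/ob arrays (8.93% of all probes did so). By role, the lumenal chaperones had 8 of 8 lower means (median -0.51), the disulfide group 4 of 4 (-0.48), the degradation group 6 of 6 (-0.31) and the sensors and their factors 1 of 5 (median 0.07). With weights for single arrays 12 of the 35 genes were called, all lower in POKO, and 13.1% of all probes were called. Since ob/ob vs. WT and POKO vs. ob/ob share the ob/ob arrays, values high in ob/ob enter both, and the 2 comparisons are not independent.

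In PPARγ2KO vs. WT, the effect of PPARγ2 loss in mice with leptin, 0 of the 35 genes and 0% of all probes were called in limma. Unadjusted p was under 0.05 for 2 genes, both with lower means (5.18% of all probes), Edem1 (-0.40 ± 0.17, adjusted p = 0.521) and Asns (-0.32 ± 0.14, adjusted p = 0.523), and Xbp1 came next (-0.47 ± 0.23, adjusted p = 0.568). That count was 0 with the slide as a block, in a fit on these 2 groups alone, or without WT replicate 1 or 2 or ob/ob replicate 3, and 5 lower and 1 higher without WT replicate 3. The median of the 35 genes was -0.01, against -0.03 for all probes, and their means were higher in 16 (41.6% of all probes) and lower in 19, though with 75th percentile scaling the median was 0.02. All 5 sensors and factors had lower means (median -0.27), and 7 of 8 lumenal chaperones had higher ones (median 0.05). In POKO vs. PPARγ2KO, 0 genes were called (0.00971% of all probes), 3 had an unadjusted p under 0.05, all with higher means in POKO (4.67% of all probes), and these were Ppp1r15a (1.06 ± 0.37, adjusted p = 0.36), Trib3 (0.72 ± 0.26, adjusted p = 0.375) and Syvn1 (0.26 ± 0.11, adjusted p = 0.451). Their count was 0 without POKO replicate 1 and 1 without POKO replicate 3 or PPARγ2KO replicate 2. With 75th percentile scaling it was 1 higher and 1 lower, and the median of the 35 genes in this comparison turned from 0.11 to -0.04. That median was 0.04 without PPARγ2KO replicate 2, 0.05 without POKO replicate 1 and 0.18 without PPARγ2KO replicate 1.

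In ob/ob vs. PPARγ2KO, 0 of the 35 genes were called (0.00486% of all probes), while 16 had a higher mean with an unadjusted limma p under 0.05 (45.7%, against 8.37% of all probes) and 1 a lower one (2.86%, against 11%). These counts were 6 and 2 with 75th percentile scaling, and the 16 became 9 without ob/ob replicate 3 and 10 without PPARγ2KO replicate 2. The smallest p values belonged to Hsp90b1 (0.83 ± 0.19, adjusted p = 0.0933), Herpud1 (0.98 ± 0.27, adjusted p = 0.119) and Syvn1 (0.40 ± 0.11, adjusted p = 0.119). The count of called genes was 8 without ob/ob replicate 1 (5.29% of all probes) and 9 with weights for single arrays (10% of all probes). When the 2 leptin-deficient genotypes were averaged against the 2 with leptin, Hsp90b1 (0.67 ± 0.13, adjusted p = 0.0251), Creld2 (0.71 ± 0.19, adjusted p = 0.0499) and Syvn1 (0.31 ± 0.08, adjusted p = 0.0458) rose, 3 of 35 genes or 8.57%, with 9.04% of all probes called and 4.23% called higher. Herpud1 was just outside (0.71 ± 0.19, adjusted p = 0.0512). Over 21 alternatives the log2 fold change ran from 0.42 to 0.75 for Hsp90b1, 0.48 to 0.86 for Creld2 and 0.08 to 0.66 for Syvn1. The median of the 35 genes was 0.27 against -0.06 for all probes, with 29 higher (39.6% of all probes). With 75th percentile scaling it was 0.09, against -0.12 for all probes, with 23 higher, and 0 genes were called (8.73% of all probes). The count of 3 also went to 0 without WT replicate 1 or 2, ob/ob replicate 2, PPARγ2KO replicate 1 or any of the POKO arrays (0.826% to 2.55% of all probes), to 1 without ob/ob replicate 3 (2.44%) or PPARγ2KO replicate 2 (6.2%), and to 8 without ob/ob replicate 1 (11.7%).

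When the 2 genotypes without PPARγ2 were averaged against the 2 with it, 0 genes and 0% of probes were called, and the means of 31 of the 35 genes were lower (median -0.14, against -0.01 for all probes, of which 44.3% were higher). That median was -0.23 without ob/ob replicate 1, -0.08 without ob/ob replicate 3 and -0.09 with 75th percentile scaling. Edem1 had the smallest p (-0.39 ± 0.12, adjusted p = 0.927), and it was the only one of the 35 genes with an unadjusted limma p under 0.05 (1.95% of all probes had one with a lower mean), but 10 had one without ob/ob replicate 1, 7 with weights for single arrays and 4 without PPARγ2KO replicate 3, all with lower means. Derl1 (-0.17 ± 0.08) and Dnajb9 (-0.41 ± 0.20) followed. The interaction, that is the effect of PPARγ2 loss without leptin minus that with leptin, called 0 of the 35 genes and 0% of all probes. Its median over the genes was -0.24, against 0.04 for all probes, and all 8 lumenal chaperones were negative (median -0.54). The median of all 35 was -0.49 without ob/ob replicate 1 and -0.16 without ob/ob replicate 3. Unadjusted p was under 0.05 for 1 gene above 0 (7.53% of all probes) and 2 below 0 (6.36%), which were Pdia4 (-0.98 ± 0.32, adjusted p = 0.281), Asns (0.50 ± 0.20, adjusted p = 0.314) and Creld2 (-0.88 ± 0.38, adjusted p = 0.347). The 2 below 0 became 11 without ob/ob replicate 1 or with array weights and 7 without WT replicate 3, and over all fits that left out 1 array they ran from 1 to 11 and the genes above 0 from 0 to 2. Without WT replicate 3, Pdia4 was called in the interaction (-1.26, adjusted p = 0.0388), as were 1.66% of all probes.

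The genes with an ERSE or ERSE-II were set beside those without. Of the 11 measured genes with either element, all 11 had higher means in ob/ob vs. WT (median 0.55, 6 at an unadjusted limma p under 0.05). Among them 3 were called, where 4.92% of all probes were called higher. Of the 19 measured genes with a window and neither element, 12 had higher means (median 0.14, 3 higher and 2 lower at an unadjusted p under 0.05, 0 called). The medians were 0.20 and -0.03 for POKO vs. WT and -0.45 and -0.12 for POKO vs. ob/ob, with all 11 genes with an element lower in POKO. The 20 measured genes outside the list that held ERSE or ERSE-II had a median of -0.04 in ob/ob vs. WT with 9 higher. Of the 20, 2 were called higher and 4 called lower, where 4.92% and 6.14% of all probes were. At an unadjusted limma p under 0.05, 4 were higher and 6 lower, where 12.3% and 18.8% of all probes were. The 13781 other genes with a window and neither had a median of -0.06 with 43.8% higher. Since the list itself holds the classic targets of these elements, and the split was made with the fold changes in view, it is a description with no test.

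**Figure D4:**
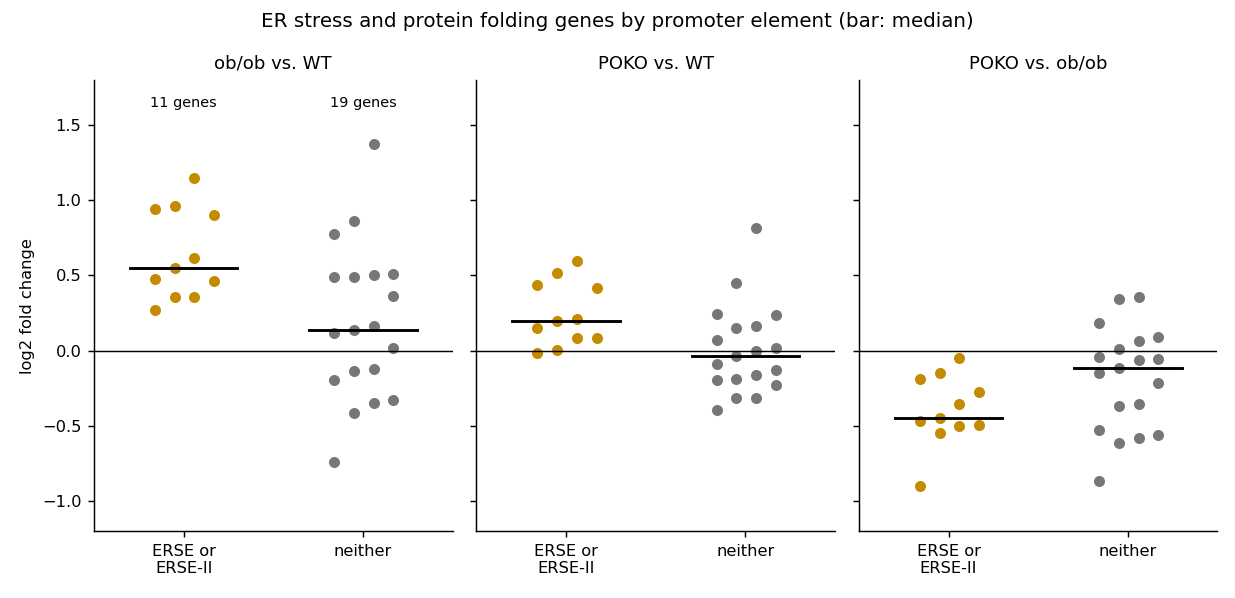
Log2 fold change of the measured genes that have a promoter window, split into 11 with ERSE or ERSE-II within 250 bases before to 50 after the start and 19 with neither, for 3 comparisons. Bars are medians, which stand at 0.55 and 0.14 for ob/ob vs. WT, at 0.20 and -0.03 for POKO vs. WT, and at -0.45 and -0.12 for POKO vs. ob/ob.

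Other genes of the same pathways were followed through separate lists, and their counts stand beside 4.92% of all probes called higher and 6.14% called lower in ob/ob vs. WT. Of 23 other genes of the ER lumen, 5 rose and 2 fell in ob/ob vs. WT in limma, with Sil1, the nucleotide exchange factor of BiP, at 0.87 (adjusted p = 0.0154) and the calcium-binding Sdf4 at 0.74 (adjusted p = 0.0337). Of 13 other disulfide genes 3 rose and 0 fell, among them the thioredoxin-like Txndc12 (0.60, adjusted p = 0.0353) and Tmx1 (0.39, adjusted p = 0.0472). Of 24 translocation and glycosylation genes 1 rose, the oligosaccharyltransferase subunit Ddost (0.76, adjusted p = 0.0484, chosen after its value was seen), while 20 had higher means (median 0.25), with Rpn2 at 0.58 (adjusted p = 0.0614) and Tusc3 at 0.54 (adjusted p = 0.0734). Of 20 other degradation genes 2 rose and 2 fell, with the lectin Erlec1 at 0.92 (adjusted p = 0.0194).

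Of 14 other sensor and processing genes 0 rose and 1 fell (median -0.18), the second IRE1 gene Ern2 at -1.34 (adjusted p = 0.04, chosen after its value was seen), while the ATF6 protease gene Mbtps1 was at 0.52 (adjusted p = 0.0604) and the adaptor Nck1 at 0.33 (adjusted p = 0.0976). Of 27 other ATF4 targets 1 rose and 3 fell and 20 had lower means (median -0.20), with Vldlr at 0.72 (adjusted p = 0.0247) and the translation repressor Eif4ebp1 at -0.86 (adjusted p = 0.0243). Of 14 cytosolic heat shock genes 1 rose, Hsph1 (0.74, adjusted p = 0.0404), with Dnajb1 at 0.36 (adjusted p = 0.0798), and of 13 immediate early genes 0 were called, with Junb at 0.14 and Ier3 at -0.43. In POKO vs. WT 0 genes of these 8 lists were called, where 0.194% of all probes were.

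The summed markers of some cell types also differed between genotypes, while those of others overlapped. Exocrine RNA was present on every array, since all 18 measured acinar markers were well above background on all arrays. Their summed log2 signal was 21.5 to 21.8, above the sum of the beta cell markers on every array. Quantile normalization gives the brightest probes nearly the same values on every array. The small range of the acinar sum therefore cannot show that the genotypes had equal acinar content. The sum of 11 beta cell markers, which includes Ero1b, was 19.3 to 19.8 in WT, 19.5 to 19.7 in PPARγ2KO, 19.8 to 19.9 in ob/ob and 19.6 to 19.7 in POKO, with 10 or 11 of them above background. WT replicate 3, which had the highest chaperone median of its group, also had the highest beta cell sum of WT (19.8). The sum of 9 duct markers was 19.2 to 19.4 in WT and 18.4 to 19.1 in ob/ob. The sum of 8 B cell markers was 6.85 to 7.03 in WT and 6.95 to 11.5 in PPARγ2KO. It was 10.3 to 11.9 in ob/ob and 10.2 to 11.8 in POKO. That of 8 T cell markers was 8.77 to 8.86 in WT and 8.08 to 10.5 in PPARγ2KO. It was 9.97 to 11.4 in ob/ob and 9.26 to 10.9 in POKO. Of the B cell markers 3 or 4 were well above background on a WT array and 7 on each ob/ob array. Plasma cells are a secretory cell type with a large ER. The sum of their 6 markers was 12.5 to 12.7 in WT and 10.5 to 12.5 in ob/ob, although 2 were above background on the WT arrays and 5 on the ob/ob arrays. On the WT arrays the sum thus rested mainly on those 2 markers, so it cannot be read as a share of plasma cells. The sum of 8 endothelial markers was 11.03 to 12.39 in WT and 12.8 to 13.2 in ob/ob. It was 12.14 to 12.67 in PPARγ2KO and 12.43 to 12.87 in POKO. The macrophage and dendritic sums (11.8 to 13.2 in ob/ob, 12.2 to 12.6 in WT) and the stellate and fibroblast sums (13.5 to 15.1 and 14.0 to 14.3) overlapped. The sums of 6 alpha cell markers were 17.4 to 17.7 in WT and 17.7 to 17.8 in ob/ob, and those of 6 adipocyte markers 9.89 to 11.2 and 11.6 to 11.8. The sums of 4 delta and PP cell markers overlapped between WT (16.02 to 17.18) and ob/ob (16.86 to 17.17). In POKO they were 15.97 to 16.47, below all ob/ob and all PPARγ2KO arrays (16.83 to 17.15) and overlapping WT. The part of cell composition in the differences of the ER genes was not tested.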

How the data were processed

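Agilent 4x44K arrays in 1 colour, 3 per genotype, were scanned by the authors, and Feature Extraction 10.1.1.1 gave the deposited processed signal, a background-subtracted intensity with no normalization between arrays. The authors also deposited a table of normalized log2 values (array medians 4.88 to 4.91, scale and centring not stated, each column correlated at 0.9997 or above with its own array here), used as an alternative. Per the methods, quantile normalization and limma with mouse type and array block were used; a block by array could not be fitted with 1 sample per array. Here the processed signal of 43379 spots (1639 control spots out) was quantile-normalized and put on the log2 scale, 919 outlier spots were dropped, spots of 41174 probes averaged, and limma 3.58.1 (R 4.3.3) fitted with genotype as the only factor over all 12 arrays. Calls need an adjusted p of at most 0.05 with no fold minimum.

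The members and lists were chosen with earlier results of these data known. All called genes, the 3 genes of smallest p where none was called, and Hspa5, Xbp1, Atf4 and Ddit3 are given by array, and from each other list the 2 genes of smallest p in the averaged leptin comparison, of which 1 is not reported here. Accessions gave 25097 probes a symbol. Normexp (offset 50) used median signals, since the mean signal was not in the scanner files used. Scripts were tested on simulated data. The replicate number is the slide: deviations of same-numbered arrays from the group means correlated at -0.13 to 0.18 over 18 pairs, 4 above 0.1, so numbers were not taken as pairs. The number of arrays limits the precision.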

Additional observations from a re-analysis of the deposited data

How the results depend on the processing

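Each result was recomputed under 22 alternatives (21 for the averaged contrasts and the interaction). The number of called genes in ob/ob vs. WT, 3, was 6 with a filter on dim probes (22.3% of all probes tested were called), 6 when the probes of a gene were averaged (16.6%), 19 with weights for single arrays (32.7%, with Atf4 and Eif2ak3 lower), 0 when only the 2 groups compared were fitted (1.37%) and 1 with a fold of at least 2 as well (5.47%), and 0 to 10 with 1 array left out. In the averaged leptin comparison, 3 became 0 with 75th percentile scaling (8.73%), 0 with the fold of at least 2 (2.85%), 14 with array weights (25.3%), and 0 to 8 with 1 array left out. Array weights also gave 12 in POKO vs. ob/ob, 9 in ob/ob vs. PPARγ2KO and 1 in POKO vs. WT, each 0 as reported, and leaving out 1 array gave 0 to 8 in ob/ob vs. PPARγ2KO and 0 to 1 in the interaction. The cause was not tested, except that fits with fewer arrays or fewer probes tested adjust differently by construction. With the replicate block (the slide) the counts were 2 in ob/ob vs. WT, where Dnajc3 was lost (adjusted p = 0.0517), and 3 in the averaged leptin comparison, and the other calls did not change. The call of Hsp90b1 in ob/ob vs. WT was lost in 6 of 22 alternatives, that of Creld2 in 8 and that of Dnajc3 in 16, and those of Hsp90b1, Creld2 and Syvn1 in the averaged leptin comparison in 9, 13 and 15 of 21. The log2 fold change in ob/ob vs. WT changed sign with 75th percentile scaling for P4hb (-0.15), Edem1 (-0.073), Sec61b (-0.18) and Ssr1 (-0.043), with array weights for P4hb (-0.029), and with averaged probes for Atf6 (-0.036). With 1 array left out, it ran from -0.055 to 0.56 for Hspa5, -0.12 to 0.30 for P4hb, -0.27 to 1.37 for Derl3, -0.42 to 0.025 for Ern1, -0.48 to 0.20 for Atf3, -0.32 to 0.047 for Chac1 and -0.069 to 0.11 for Sec61b.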
